A study of Saccharomyces cerevisiae with 27 samples.

Results

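CRCM against water at 24 h compares 6 of the 27 RNA-seq libraries of the series: 3 from BY4741 cultures that received CRCM and 3 from cultures that received water, all harvested 24 h after inoculation. The members were chosen by their labels for supplement and harvest time, and the comparison is described across all genes. BY4741 is a haploid MATa laboratory strain of Saccharomyces cerevisiae with deletions at HIS3, LEU2, MET15 (listed as MET17 in current annotation) and URA3, and every culture of this comparison carries them. The growth medium was synthetic complete (SC), and its glucose content of 2% made every culture nonrestricted (NR). CRCM is concentrated, filtered medium taken from stationary cultures that had grown under caloric restriction (CR), that is, with less glucose, and it was added at 2% at inoculation. NRCM, used here only beside the main comparison, was prepared the same way from nonrestricted cultures, and water was the control. The question behind the comparison was which physiological responses follow when nonrestricted cells receive medium conditioned by calorie-restricted cells. The limit of the design as a model is that each supplement is a mixture, so a change cannot be tied to 1 of its components, and that 1 strain stands behind the 3 biological replicates of each group.

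At this age a yeast culture passes through the diauxic shift. While glucose lasts, cells ferment it through glycolysis to ethanol. When it runs out they turn to respiration of ethanol and acetate, make hexose through gluconeogenesis, build up mitochondria, and store trehalose and glycogen as they approach stationary phase. Stress genes under Msn2, Msn4 and Hsf1, the iron regulon under Aft1, and the amino acid synthesis genes under Gcn4 are the best known groups that move with nutrients at this stage.

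The libraries held 7817075 to 114316138 reads on genes, as recovered from the deposited shares, so a gene at 1 CPM (count per 1e+06 reads) rests on few reads in the shallowest of them. Counting error therefore bears most on genes under 10 CPM. CRCM libraries gave fewer reads to a small set of transcripts. The 10 genes with the most reads took 6.97 to 7.40% of the reads in CRCM libraries, against 10.4 to 12.2% in water libraries. For that reason levels are given as CPM scaled with TMM factors, which stood at 1.18 to 1.21 in CRCM and 0.86 to 0.93 in water libraries. Without these factors the log2 fold change of the median gene moves from 0.02 to 0.42, so every direction below is relative to the bulk of genes. LEU2, MET17 and URA3 had 0 or 1 read in each of the 6 libraries, as the strain's deletions require, and HIS3, whose deletion leaves part of the gene, had 28.3 to 49.6 CPM before TMM scaling. The 6 MATa markers summed to 853 to 1085 CPM in CRCM and 1019 to 1281 CPM in water libraries, and the 4 MATalpha markers to 135 to 154 CPM in CRCM and 99.6 to 118 CPM in water libraries, all before TMM scaling. The defining alpha-factor gene MF(ALPHA)1 was at 4.15 to 7.59 CPM. Levels are measured per reads in the library, so fewer cells and less RNA per cell cannot be told apart, nor can a change in total mRNA be seen.

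CRCM altered a large part of the transcriptome at 24 h. Of 6577 genes tested, 1790 were higher and 1594 lower in CRCM cultures at an adjusted p under 0.05 (limma on log2(CPM + 1), Benjamini-Hochberg over all genes tested), which is 51.5% of genes, 27.2% higher and 24.2% lower. A change of at least 1.5-fold was seen for 782 of the higher and 898 of the lower genes. At 4-fold or more the numbers were 5 and 89, so the large changes were mostly decreases. The CRCM and water libraries did not overlap for 4490 genes, or 68.3% of those tested. Replicates were tight, with a median SD on the log2 scale of 0.085 among CRCM and 0.11 among water libraries. All log2 fold changes below are CRCM over water on the log2(CPM + 1) scale, with their standard error, and all adjusted p values come from limma.

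The share of genes that were lower was greatest among abundant transcripts. Among 160 genes with a mean of over 1000 CPM, 8.13% were higher and 57.5% lower, with a median log2 fold change of -0.68. In the middle range of 30 to 100 CPM, which holds 2663 genes, 35.0% were higher and 18.7% lower, with a median of 0.11. By number most lower genes were not abundant: 161 were under 10 CPM, 230 at 10 to 30 CPM and 498 at 30 to 100 CPM, against 92 over 1000 CPM. Genes with short coding sequences leaned upward: under 600 bases, 33.6% of 1069 genes were higher and 20.5% lower, against 15.9% higher and 29.2% lower among 832 genes over 2500 bases. This lean was not particular to the comparison. The medians under 600 and over 2500 bases were 0.10 and -0.11 for CRCM over water at 24 h. They were 0.06 and -0.10 for NRCM over water at 24 h, which shares the water libraries. For CRCM over water at 96 h they were 0.13 and -0.16.

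**Figure D1:**
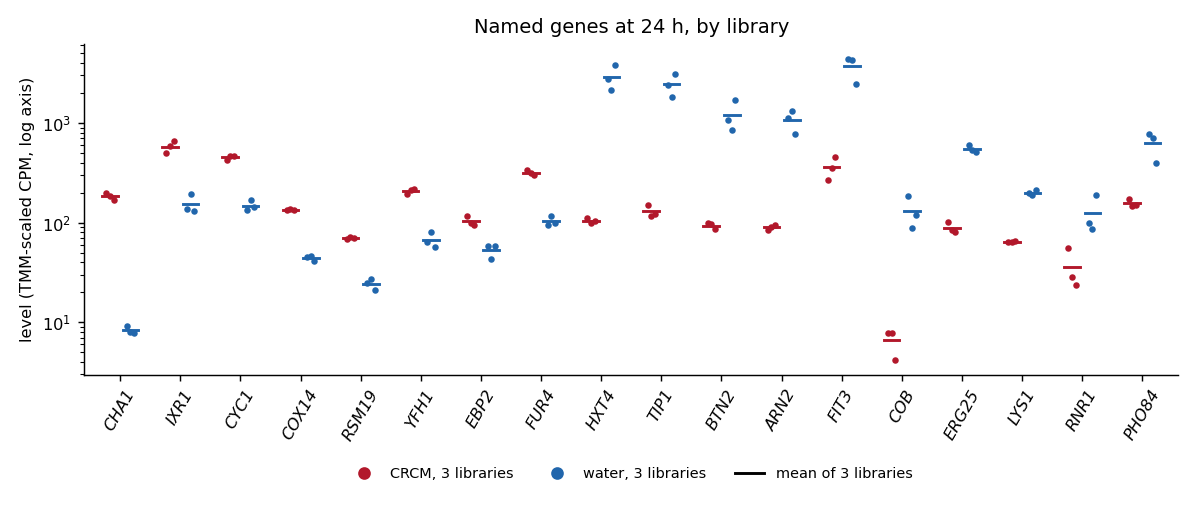
Levels of 18 named genes in each of the 3 CRCM libraries (red, left) and the 3 water libraries (blue, right) at 24 h, in TMM-scaled CPM on a log axis; a horizontal line is the mean of 3 libraries. CHA1 was at 169 to 199 CPM in CRCM and 7.82 to 9.12 CPM in water libraries, and HXT4 at 99.1 to 111 CPM in CRCM and 2158 to 3845 CPM in water libraries.

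CHA1 had the largest increase. It encodes the catabolic deaminase that breaks down L-serine and L-threonine, and lies at chrIII:15798-16880 on the minus strand (R64, the sacCer3 assembly). Its level was 199, 187 and 169 CPM in the CRCM libraries, against 9.12, 7.94 and 7.82 CPM in the water libraries. The groups were far apart and each was tight, and the log2 fold change of 4.32 ± 0.16 (adjusted p = 1.0e-06) is a 20-fold difference. The other 4 genes that rose at least 4-fold were YKL031W and YLR154W-E, rows without an entry in the R64 annotation used here, YOR302W, the leader reading frame of CPA1, at 2.08 ± 0.37 (adjusted p = 0.0014), and KTR5, a putative mannosyltransferase, at 2.02 ± 0.37 (adjusted p = 0.0016). IXR1 encodes an HMG-box protein of the hypoxic regulon and followed at 1.93 ± 0.24 (adjusted p = 1.9e-04). At the other end stood HXT4, a high-affinity hexose transporter, at -4.75 ± 0.34 (adjusted p = 1.1e-05). TIP1, a mannoprotein of the cell wall, was next at -4.21 ± 0.25 (adjusted p = 5.4e-06).

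The enzymes of glycolysis fell nearly as a body. Of 20 members, 19 were lower and 0 higher, with a median log2 fold change of -1.79 against 0.02 over all genes tested. Summed over the list, the level was 29459, 23071 and 23111 CPM in the CRCM libraries and 91558, 74901 and 96216 CPM in the water libraries. No CRCM library came near a water library, although CRCM replicate 1 stood above the other 2 CRCM libraries. PGK1, phosphoglycerate kinase, had 1112, 756 and 715 CPM with CRCM, against 6064, 4862 and 6580 CPM with water. It was the most reduced member, at -2.78 ± 0.32 (adjusted p = 1.4e-04). ENO1, one of the enolases, fell by 2.58 ± 0.25 on the log2 scale (adjusted p = 4.7e-05) and TDH3, the main glyceraldehyde-3-phosphate dehydrogenase, by 2.48 ± 0.26 (adjusted p = 7.7e-05). TDH1, its stationary phase paralog, fell less, at -1.5 ± 0.21 (adjusted p = 3.4e-04), and CDC19, pyruvate kinase, stood at -1.84 ± 0.33 (adjusted p = 0.0014). The TDH genes are near-identical in sequence, as are ENO1 and ENO2, so reads may be split between paralogs and the values of single members are uncertain. PFK26, the kinase that makes the regulator fructose-2,6-bisphosphate, was the member that did not pass, at 0.01 ± 0.14 (adjusted p = 0.98), and was called higher without TMM factors (0.42).

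The steps after pyruvate moved unevenly. Among pyruvate decarboxylases and alcohol and aldehyde dehydrogenases, 8 of 12 were lower and 1 higher, with a median of -0.79. PDC1, the main pyruvate decarboxylase, had 1160, 629 and 621 CPM with CRCM and 4201, 3810 and 3432 CPM with water, a log2 fold change of -2.31 ± 0.46 (adjusted p = 0.0028). PDC6, a minor isozyme, stood at -2.57 ± 0.56 (adjusted p = 0.0043). ALD6, the cytosolic aldehyde dehydrogenase that makes acetate, was the member that rose, with 4628, 4877 and 5569 CPM in CRCM and 1966, 2656 and 1734 CPM in water libraries (1.26 ± 0.19, adjusted p = 5.2e-04). ADH1, the fermentative alcohol dehydrogenase, had a value of -0.62 ± 0.26 that did not pass (adjusted p = 0.071). It did pass with DESeq2 on recovered reads, in a fit of only the 6 libraries, with a replicate block, and without CRCM or NRCM replicate 1 (-0.58 to -0.78).

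Sugar uptake genes were divided, and HXT4, HXT7 and HXT3 were among the lower. HXT4 had 111, 99.1 and 103 CPM in CRCM libraries, against 2756, 2158 and 3845 CPM in water libraries. HXT7, a high-affinity transporter whose sequence is near-identical to HXT6, stood at 4230, 4755 and 4730 CPM with CRCM and 11421, 10213 and 12492 CPM with water (-1.31 ± 0.21, adjusted p = 8.0e-04). HXT3, a low-affinity transporter, was at -1.43 ± 0.21 (adjusted p = 4.7e-04). The groups did not overlap for any of these 3 genes, which also holds for 68.3% of all genes tested. Of the 23 hexose transport and sensing genes, 9 were lower and 4 higher, with a median of 0.01 against 0.02 over all genes. Without TMM factors 11 were higher and 7 lower. SUC2, the glucose-repressed invertase, was lower at -2.36 ± 0.33 (adjusted p = 3.6e-04).

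**Figure D2:**
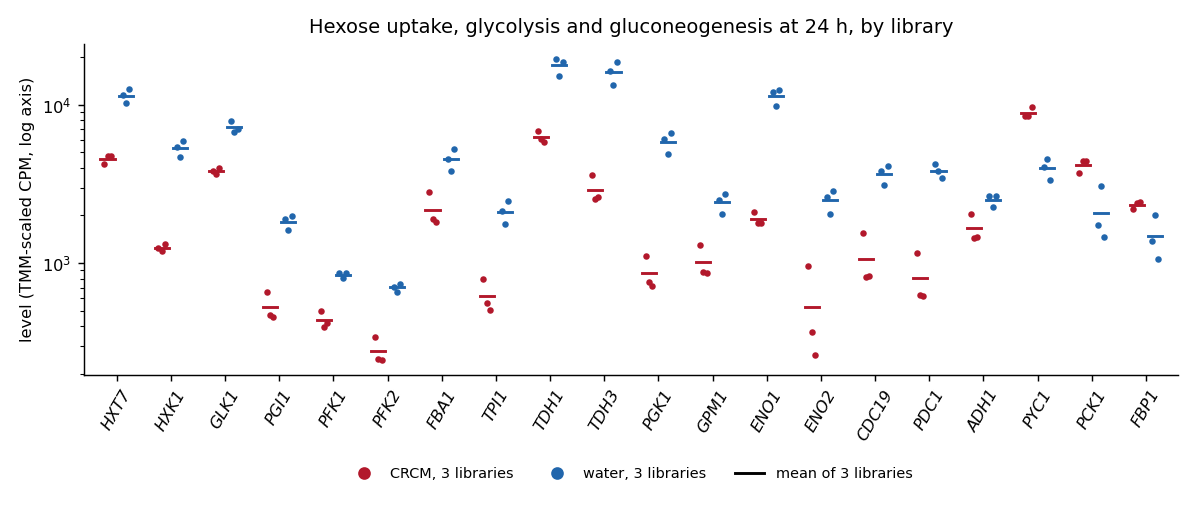
Levels of 20 genes of hexose uptake, glycolysis, the branch to ethanol and gluconeogenesis in each CRCM library (red, left) and each water library (blue, right) at 24 h, in TMM-scaled CPM on a log axis with the mean of 3 libraries as a line. The glycolytic genes sit lower in CRCM, while PYC1 (8461 to 9670 CPM in CRCM, 3329 to 4565 CPM in water) and PCK1 sit higher.

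Glycerol genes changed in both directions and gluconeogenic genes were more often higher than lower. Of 11 genes of glycerol synthesis and use, 5 were lower and 2 higher, with a median of -0.31 that became 0.11 without TMM factors. GPD1, the glycerol-3-phosphate dehydrogenase of glycerol synthesis, fell to 90.0, 98.6 and 110 CPM in CRCM libraries, against 433, 458 and 444 CPM in water libraries (-2.15 ± 0.32, adjusted p = 5.5e-04). GPP1, the phosphatase of the next step, went the other way, with 321, 239 and 235 CPM in CRCM and 135, 88.3 and 134 CPM in water libraries (1.16 ± 0.22, adjusted p = 0.0020). Its isozyme GPP2 was the other higher member, at 0.73 ± 0.17 (adjusted p = 0.0065), and GPD2, the isozyme of GPD1, was lower at -1.89 ± 0.10 (adjusted p = 3.7e-06). Of 19 genes of gluconeogenesis, the glyoxylate cycle and acetate use, 9 were higher and 2 lower, with a median of 0.38. PCK1, phosphoenolpyruvate carboxykinase, was at 3685, 4401 and 4379 CPM with CRCM and 1744, 3053 and 1454 CPM with water (1.07 ± 0.25, adjusted p = 0.0064). SFC1, the mitochondrial succinate-fumarate carrier, rose by 1.34 ± 0.24 (adjusted p = 0.0015). FBP1, fructose-1,6-bisphosphatase, had 0.70 ± 0.30 and missed the threshold (adjusted p = 0.074). It passed without TMM factors (1.12), in a fit of only the 6 libraries, with a replicate block, and without NRCM replicate 1 or water replicate 2 (0.70 to 0.95). ICL1, isocitrate lyase, had -0.18 ± 0.22 (adjusted p = 0.50). MDH2, the cytosolic malate dehydrogenase of the same pathway, was lower at -1.43 ± 0.16 (adjusted p = 1.4e-04). NRCM gave PCK1 a log2 fold change over water of 1.38 (adjusted p = 0.011), so that gene was higher with either conditioned medium.

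PYC1, a pyruvate carboxylase that replenishes oxaloacetate, took the largest share of reads of any gene in the CRCM libraries (not scaled for gene length), where TDH1 or TDH3 did in the water libraries. Its level was 8529, 8461 and 9670 CPM with CRCM and 4028, 4565 and 3329 CPM with water, a log2 fold change of 1.17 ± 0.33 (adjusted p = 0.014), which no longer passed without water replicate 3 (1.05). SDH2 and SDH1, subunits of succinate dehydrogenase, were higher at 1.31 ± 0.28 (adjusted p = 0.0040) and 0.76 ± 0.21 (adjusted p = 0.013). CIT1, mitochondrial citrate synthase, was not called, at -0.32 ± 0.16 (adjusted p = 0.12), though it was called lower with DESeq2 on recovered reads, in a fit of only the 6 libraries and without NRCM replicate 1 (-0.28 to -0.34). The tricarboxylic acid cycle as a list had 3 of 19 genes higher and 4 lower, and 7 higher and 1 lower without TMM factors. With TMM factors those shares, 15.8% and 21.1%, were under the 27.2% and 24.2% of all genes tested.

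Chaperone transcripts made the other large fall. Of 27 heat shock chaperones, 23 were lower and 0 higher, with a median log2 fold change of -1.69, and their summed level was 14277, 13628 and 14291 CPM in CRCM libraries against 52991, 46485 and 64419 CPM in water libraries. HSP26, a small heat shock protein, stood at 2522, 2370 and 2502 CPM with CRCM and 14643, 12527 and 17289 CPM with water (-2.58 ± 0.17, adjusted p = 8.5e-06). SSA4, a stress-induced Hsp70, fell to 434, 368 and 376 CPM in CRCM libraries, against 2348, 2140 and 3133 CPM in water libraries (-2.67 ± 0.26, adjusted p = 5.1e-05). HSP42, another small heat shock protein that holds misfolded proteins, was at 684, 634 and 706 CPM with CRCM and 1692, 1435 and 2073 CPM with water (-1.35 ± 0.17, adjusted p = 2.0e-04). BTN2, which sorts misfolded proteins, fell by 3.62 ± 0.28 (adjusted p = 1.5e-05). The Hsp70 of the endoplasmic reticulum, KAR2, was lower at -2.11 ± 0.15 (adjusted p = 1.0e-05). With NRCM, 10 of the 27 chaperones were lower than with water, and the list's median was -0.47.

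Genes of carbon storage were mostly lower and those of peroxide defence were divided. For trehalose, 6 of 7 genes were lower (median -0.86), and for glycogen 10 of 15 were lower and 2 higher (median -1.19). TSL1, a regulatory subunit of trehalose-6-phosphate synthase, had 491, 493 and 559 CPM with CRCM and 1790, 1687 and 1725 CPM with water (-1.75 ± 0.11, adjusted p = 5.9e-06). TPS1, the catalytic subunit, was at -0.86 ± 0.10 (adjusted p = 1.2e-04). Of 29 antioxidant genes 11 were lower and 7 higher, with a median of -0.17. Without TMM factors 12 were higher and 6 lower, and the median was 0.23. The peroxiredoxins AHP1, at -2.19 ± 0.12 (adjusted p = 3.7e-06), and TSA1, at -1.89 ± 0.12 (adjusted p = 6.5e-06), were among the lower. GRX4, a glutaredoxin that takes part in iron sensing, was among the higher, at 1.15 ± 0.22 (adjusted p = 0.0021). HSP12, a membrane-protecting protein and a usual marker of Msn2 and Msn4 activity, had 3371, 4056 and 4134 CPM in CRCM and 4653, 4783 and 4958 CPM in water libraries, and its -0.32 ± 0.14 did not pass (adjusted p = 0.074). HSP12 was called lower with DESeq2 on recovered reads, in a fit of only the 6 libraries and without NRCM replicate 1 (-0.28 to -0.34). Of 26 stationary phase and general stress genes, 16 were lower and 3 higher, with a median of -0.52. Without TMM factors 8 were lower and 5 higher, and the median was -0.10.

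The windows of 250 bases before the start codon of HSP42 and TSL1 are shown because they carry letters of stress motifs. STRE is AGGGG, bound by Msn2 and Msn4, and HSE was searched as GAANNTTC, bound by Hsf1; both strands were searched, and matches are in capitals (R64 RefSeq sequence; HSP42 chrIV:806371-806620, plus strand; TSL1 chrXIII:70374-70623, plus strand).
HSP42: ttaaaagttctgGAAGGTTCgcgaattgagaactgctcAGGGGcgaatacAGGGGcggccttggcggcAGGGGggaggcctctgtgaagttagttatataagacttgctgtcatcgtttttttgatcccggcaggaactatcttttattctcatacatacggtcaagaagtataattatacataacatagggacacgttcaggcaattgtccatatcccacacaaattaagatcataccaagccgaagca
TSL1: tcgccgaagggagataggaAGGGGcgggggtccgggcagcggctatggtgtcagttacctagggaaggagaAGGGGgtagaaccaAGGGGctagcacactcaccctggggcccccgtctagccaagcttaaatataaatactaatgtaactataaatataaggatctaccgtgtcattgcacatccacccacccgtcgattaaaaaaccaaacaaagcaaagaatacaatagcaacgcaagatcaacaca
HSP42 holds 4 matches and TSL1 holds 3. In windows of 300 bases around the start codon (250 before and 50 after), HSE was found in 40.7% of the chaperone genes and 11.8% of all 5985 promoters, and STRE in 33.3% and 21.7%. STRE was in 29.5% of promoters of genes called lower and 17.8% of those called higher. A match is a description of letters and not a shown binding site.

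Iron uptake genes were largely lower. Of the 28 genes of the iron regulon in the file, 27 were tested, and 21 were lower and 1 higher, with a median of -1.08. The higher one was AFT2, a paralog of the regulator AFT1. The level summed over the list was 4209, 4623 and 4912 CPM in CRCM libraries and 18719, 19119 and 13742 CPM in water libraries. ARN2, a siderophore transporter, fell to 84.8, 91.0 and 94.6 CPM with CRCM, against 1132, 1306 and 781 CPM with water (-3.53 ± 0.24, adjusted p = 8.7e-06). FIT3, a mannoprotein that retains siderophore iron at the wall, had 267, 355 and 455 CPM with CRCM and 4388, 4287 and 2490 CPM with water (-3.36 ± 0.43, adjusted p = 2.6e-04). FET3 and FTR1 form the high-affinity iron uptake complex of a multicopper oxidase and a permease. FTR1 was at 99.9, 99.2 and 109 CPM with CRCM and 358, 401 and 299 CPM with water (-1.76 ± 0.18, adjusted p = 7.9e-05), and FET3 at -2.16 ± 0.24 (adjusted p = 1.1e-04). The other siderophore transporters ARN1 (-2.59 ± 0.32, adjusted p = 2.1e-04) and SIT1 (-2.40 ± 0.30, adjusted p = 2.0e-04) and the mannoprotein FIT2 (-2.18 ± 0.12, adjusted p = 5.2e-06) moved alike. TIS11, which degrades mRNAs of iron-using enzymes when iron is short, was also lower, at -2.68 ± 0.51 (adjusted p = 0.0021). FIT1 did not fall with the other FIT genes, and had 62.1, 73.4 and 79.2 CPM in CRCM and 51.0, 60.9 and 37.8 CPM in water libraries, a value that did not pass (0.53 ± 0.21, adjusted p = 0.059). It was called higher without TMM factors (0.94), in fits of only the 6 or all 27 libraries, with a replicate block, and without NRCM replicate 1 or water replicate 2 (0.53 to 0.68).

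Genes of iron-sulfur cluster assembly mostly went the other way. Of 19 assembly genes, 11 were higher and 1 lower, with a median of 0.44. The lower one was MRS3, a mitochondrial iron carrier. YFH1, the yeast frataxin, had 195, 210 and 215 CPM with CRCM and 64.5, 81.0 and 56.4 CPM with water (1.62 ± 0.21, adjusted p = 2.4e-04). ISA2, a late-acting scaffold, was at 1.01 ± 0.16 (adjusted p = 7.9e-04). Among enzymes that carry the cluster, LEU1, isopropylmalate isomerase, had 292, 236 and 225 CPM in CRCM and 130, 110 and 118 CPM in water libraries (1.06 ± 0.14, adjusted p = 3.3e-04), and TYW1, of wybutosine synthesis in tRNA, was at 1.19 ± 0.28 (adjusted p = 0.0060). Such enzymes did not all rise: LYS4, homoaconitase, which also carries a cluster, was lower, as given below with the amino acid genes. For NRCM over water the iron regulon had a median of -0.28, with 3 genes lower and 1 higher.

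The Aft1 site, searched as TGCACCC on both strands, was found in 14 of the 28 iron regulon promoters and 1.29% of all promoters. Windows of FIT3 and FTR1 are shown as examples among the strongly reduced members, with the site in capitals (FIT3 chrXV:1061056-1061305, FTR1 chrV:461741-461990, both on the minus strand).
FIT3: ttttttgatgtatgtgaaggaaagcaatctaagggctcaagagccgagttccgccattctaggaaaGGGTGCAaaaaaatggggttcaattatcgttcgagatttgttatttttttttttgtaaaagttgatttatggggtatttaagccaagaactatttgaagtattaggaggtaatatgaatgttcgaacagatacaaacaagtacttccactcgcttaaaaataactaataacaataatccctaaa
FTR1: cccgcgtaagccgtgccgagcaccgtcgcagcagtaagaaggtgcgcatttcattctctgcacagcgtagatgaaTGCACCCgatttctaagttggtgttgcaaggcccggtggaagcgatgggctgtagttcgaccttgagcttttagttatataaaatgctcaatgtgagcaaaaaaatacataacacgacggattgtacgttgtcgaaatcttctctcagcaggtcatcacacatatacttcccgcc
FIT3 carries the site in the reverse orientation, GGGTGCA, and FTR1 in the forward one. Each window holds 1 match.

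Genes of the mitochondrial ribosome were higher almost throughout. Of 74 genes, 70 were higher and 2 lower, with a median log2 fold change of 0.85. Summed over the list, the level was 6668, 7011 and 7005 CPM in CRCM libraries and 4134, 4309 and 3972 CPM in water libraries. RSM19, a protein of the small subunit, had 68.6, 71.9 and 70.4 CPM with CRCM and 24.8, 27.5 and 20.9 CPM with water (1.5 ± 0.13, adjusted p = 2.4e-05). MRPS8, also of the small subunit, was at 1.46 ± 0.16 (adjusted p = 1.0e-04), and MRPL50, of the large subunit, had 123, 119 and 123 CPM in CRCM and 46.7, 44.8 and 42.2 CPM in water libraries (1.43 ± 0.12, adjusted p = 2.6e-05). The lower members were MRP8, at -0.60, which bears the name of the group but has no known place in the ribosome, and VAR1, which the mitochondrial genome encodes and which is described with it. The highest value in the list was 1.5, so the increases were under 3-fold.

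Assembly and import factors rose with it. Of 30 cytochrome c oxidase assembly genes 22 were higher and 0 lower, with a median of 0.69. COX14, which couples synthesis and assembly of subunit 1, had 133, 137 and 134 CPM with CRCM and 45.2, 46.3 and 41.4 CPM with water (1.59 ± 0.12, adjusted p = 1.7e-05). COX17, a copper chaperone, was at 1.08 ± 0.24 (adjusted p = 0.0044), PET191 at 1.26 ± 0.16 (adjusted p = 2.4e-04) and MSS51, an activator of COX1 translation, at 1.11 ± 0.25 (adjusted p = 0.0051). Of 28 import genes 18 were higher and 1 lower. PAM16, of the import motor, was at 1.40 ± 0.12 (adjusted p = 3.4e-05), TIM23, the inner membrane channel, at 1.32 ± 0.21 (adjusted p = 7.7e-04) and TOM22, an outer membrane receptor, at 0.97 ± 0.13 (adjusted p = 2.6e-04). TOM40, the outer membrane channel, was the member that fell, at -0.36 ± 0.08 (adjusted p = 0.0056), but it turned to 0.06 without TMM factors and its call was lost when all 27 libraries shared 1 fit.

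Many of these nuclear transcripts carry the letters TGTANATA, the core recognised by the mRNA-binding protein Puf3, shortly after their stop codon. The letters were searched on the gene's strand in the 200 bases after the stop codon, and were looked at once the gene values were known. They were present in 71 of 73 mitochondrial ribosome genes with a window (97.3%), 27 of 30 oxidase assembly genes (90.0%) and 20 of 28 import genes (71.4%), against 841 of 5911 genes in all (14.2%). Only 4 of 37 respiratory chain subunits (10.8%) had them. Among genes called higher the share was 23.3% and among genes called lower 9.14%. Outside the 6 mitochondrial lists, the 710 genes with the letters included 266 higher and 130 lower (median 0.17), and those without included 1229 higher and 1294 lower (median -0.01). The lines below give 30 bases around the first match, in capitals, for 5 of the genes described above (R64; RSM19 chrXIV:695022-695051, minus strand; MRPS8 chrXIII:572761-572790, plus strand; MRPL50 chrXIV:669719-669748, minus strand; COX14 chrXIII:14381-14410, minus strand; COX17 chrXII:131155-131184, minus strand).
RSM19: gggatctagTGTATATAgatttctagatga
MRPS8: tatacggaccaTGTAAATAataatattata
MRPL50: gcgtacaatctTGTATATAggcaacatcgc
COX14: atttacgaaccTGTATATAataattaaatc
COX17: caaccatttctTGTATATAtaagaataggt

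Whether subunits of the respiratory chain passed depended on the fit. Of 37 nuclear subunits of the chain and the ATP synthase, 10 were higher and 2 lower, with a median of 0.21, and 25 were not called. The count of higher members was 29 without TMM factors, 24 without NRCM replicate 1, 18 in a fit of only the 6 libraries and 6 without CRCM replicate 2 or 3. CYC1, iso-1-cytochrome c, was the most increased, with 423, 468 and 465 CPM in CRCM and 133, 169 and 143 CPM in water libraries (1.61 ± 0.27, adjusted p = 0.0010). QCR6, of complex III, was at 1.04 ± 0.12 (adjusted p = 1.4e-04). COX4, of complex IV, had 0.01 ± 0.13 (adjusted p = 0.94), its libraries overlapped, and it was called higher without TMM factors (0.43).

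The subunits of the HAP complex, the activator of respiratory genes, were all higher, but the wider list was divided. Of 18 HAP regulators and oxygen-regulated isoforms, 7 were higher and 9 lower, with a median of -0.37. Without TMM factors 8 were higher and 5 lower, and the median was 0.05. HAP4, the regulated activation subunit, had 1612, 1548 and 1602 CPM with CRCM and 737, 873 and 816 CPM with water (0.98 ± 0.26, adjusted p = 0.011). HAP3 was at 1.14 ± 0.17 (adjusted p = 6.1e-04), HAP5 at 1.08 ± 0.10 (adjusted p = 4.2e-05) and HAP2 at 0.47 ± 0.10 (adjusted p = 0.0030). ROX1, the repressor of hypoxic genes, rose to 418, 417 and 446 CPM in CRCM libraries, against 148, 190 and 138 CPM in water libraries (1.44 ± 0.17, adjusted p = 1.6e-04). CYC7, the hypoxic cytochrome c isoform, fell by 1.24 ± 0.30 (adjusted p = 0.0069). The CCAAT box bound by the HAP complex, searched as CCAAT, was in 81.1% of promoters of respiratory chain genes and 43.3% of all promoters. It was in 40.6% of promoters of genes called higher and 46.0% of those called lower.

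Transcripts of the mitochondrial genome were lower with CRCM. All 27 tested rows were lower, with a median of -2.88, but rows overlap (the introns of COB and COX1 are listed as separate reading frames), so they are not independent. COB, cytochrome b, had 7.79, 7.82 and 4.23 CPM with CRCM and 187, 88.6 and 121 CPM with water (-4.10 ± 0.56, adjusted p = 3.4e-04). VAR1, the ribosomal protein of mitochondria's own genome, was near the detection limit in CRCM libraries, at 0.57, 1.16 and 0.47 CPM, against 34.7, 14.8 and 12.4 CPM in water libraries (-3.52 ± 0.46, adjusted p = 2.8e-04). Its fitted change ran from -2.06 with a pseudocount of 5 CPM to -5.17 with edgeR on recovered reads. COX1 was at -3.02 ± 0.42 (adjusted p = 3.5e-04) and OLI1, an ATP synthase subunit, at -0.89 ± 0.20 (adjusted p = 0.0055), a call lost when all 27 libraries shared 1 fit. The sum over the genome, before TMM scaling, was 143 to 202 CPM in CRCM, 96.6 to 389 CPM in NRCM and 937 to 1743 CPM in water libraries. In log phase it was 21.4 to 380 CPM in CRCM, 26.3 to 462 CPM in NRCM and 202 to 1614 CPM in water libraries, so the ranges overlapped there, and libraries of 1 group differed several-fold in log phase and, for CRCM and water, at 96 h. Yeast mitochondrial mRNAs lack poly(A) tails and the libraries were made with poly(A) selection, so these reads are a residue of the selection, and the part of library preparation in this difference was not tested.

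Ribosome synthesis split into its assembly factors and its proteins. Of 111 genes for rRNA processing and ribosome assembly, 54 were higher and 0 lower, with a median of 0.44. JJJ1, a cochaperone of late large subunit maturation, had 81.7, 83.1 and 80.4 CPM with CRCM and 30.2, 29.1 and 29.5 CPM with water (1.44 ± 0.08, adjusted p = 3.7e-06). RRP15, of the pre-60S particle, had 97.7, 87.0 and 86.0 CPM with CRCM and 37.2, 37.9 and 40.7 CPM with water (1.20 ± 0.10, adjusted p = 2.3e-05). EBP2, also of the large subunit pathway, was at 0.96 ± 0.15 (adjusted p = 6.9e-04), LCP5, of the small subunit pathway, at 1.02 ± 0.17 (adjusted p = 8.8e-04) and NSR1, a nucleolar protein, at 0.87 ± 0.20 (adjusted p = 0.0063). NRCM did not show this: 1 gene of the list was higher and 9 lower than with water, with a median of -0.25. In the same fit CRCM stood above NRCM for 79 of the 111 and below it for 0.

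Cytosolic ribosomal protein genes leaned down with a wide spread among CRCM libraries. Of 138, 18 were lower and 2 higher, with a median of -0.60, so the share called lower was under the 24.2% of all genes tested. Without TMM factors 8 were higher and 2 lower, and the median was -0.19. Their summed level was 18573, 10529 and 8932 CPM in CRCM libraries and 21337, 16017 and 17452 CPM in water libraries, so CRCM replicate 1 lay within the range of the water libraries. The number of lower genes was 80 without CRCM replicate 1, 47 without NRCM replicate 1 and 5 to 7 without CRCM replicate 2 or 3 or water replicate 1 or 3. It was 45 in a fit of only the 6 libraries and 54 in a fit of all 27. RPL16B, of the large subunit, had 133, 55.3 and 41.1 CPM with CRCM and 248, 195 and 244 CPM with water (-1.74 ± 0.39, adjusted p = 0.0045). RPS27A was the clearest member that rose, with 134, 114 and 108 CPM in CRCM and 73.6, 54.2 and 67.9 CPM in water libraries (0.86 ± 0.13, adjusted p = 4.7e-04). Most of these genes exist as near-identical pairs, so the split between paralogs is uncertain.

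Assembly factor promoters carry the PAC and RRPE motifs, which distinguish them from most promoters. PAC was searched as GATGAG and RRPE as AAAAATTTT on both strands. PAC was in 91.9% of the promoters of the list and 20.4% of all promoters, and RRPE in 69.4% and 7.0%. The windows of EBP2 (chrXI:125509-125758, plus strand) and LCP5 (chrV:414231-414480, plus strand) are shown as members with both, with matches in capitals.
EBP2: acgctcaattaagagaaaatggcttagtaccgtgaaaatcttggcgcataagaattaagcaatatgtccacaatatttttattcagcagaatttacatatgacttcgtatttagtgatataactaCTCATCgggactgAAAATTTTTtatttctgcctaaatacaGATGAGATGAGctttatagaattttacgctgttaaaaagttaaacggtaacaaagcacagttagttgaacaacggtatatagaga
LCP5: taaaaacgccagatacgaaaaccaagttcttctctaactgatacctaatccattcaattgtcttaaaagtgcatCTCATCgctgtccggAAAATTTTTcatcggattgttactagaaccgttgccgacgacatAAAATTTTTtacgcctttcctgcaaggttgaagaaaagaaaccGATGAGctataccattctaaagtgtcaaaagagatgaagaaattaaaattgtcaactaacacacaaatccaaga
Each window holds 4 matches, and the PAC matches nearest the start codon of EBP2 run together.

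Amino acid genes moved in both directions. Of 39 synthesis genes that answer to general amino acid control, 11 rose and 19 fell, and the median of -0.31 became 0.10 without TMM factors. The count of higher genes was 6 without CRCM replicate 3 and 7 without CRCM replicate 2 or any single water library. Without TMM factors 17 were higher and 8 lower. The list holds 7 LYS genes, looked at together after their values were seen, of which 6 were lower and LYS20, a homocitrate synthase, was higher at 0.35 ± 0.10 (adjusted p = 0.017). LYS9, saccharopine dehydrogenase, had 84.2, 82.6 and 81.3 CPM with CRCM and 329, 272 and 418 CPM with water (-2.0 ± 0.30, adjusted p = 5.7e-04). LYS1, the last enzyme of the pathway, had 64.6, 64.4 and 64.9 CPM with CRCM and 197, 189 and 210 CPM with water (-1.61 ± 0.07, adjusted p = 3.7e-06). LYS4, homoaconitase, was at -1.51 ± 0.19 (adjusted p = 2.5e-04). Arginine synthesis was divided. ARG4, argininosuccinate lyase, fell by 1.55 ± 0.12 (adjusted p = 1.5e-05), while ARG3, ornithine carbamoyltransferase, had 66.6, 83.1 and 71.3 CPM in CRCM and 22.4, 30.8 and 22.6 CPM in water libraries (1.52 ± 0.33, adjusted p = 0.0043). CPA1, the carbamoyl phosphate synthetase subunit whose translation the leader YOR302W governs, stood at 2995, 2921 and 3038 CPM with CRCM and 1269, 1264 and 1033 CPM with water (1.33 ± 0.41, adjusted p = 0.021), a call lost without CRCM replicate 1, 2 or 3 or water replicate 3 (1.24 to 1.35). The leader and CPA1 lie on 1 transcript. GCN4 itself had -0.36 ± 0.11 (adjusted p = 0.018), but 0.06 without TMM factors, and its call was lost in a fit of all 27 libraries and without CRCM replicate 1 or 3 or water replicate 1 (-0.34 to -0.36).

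The promoter of LYS1 (chrIX:420737-420986, minus strand) is shown because it holds 2 matches to the Gcn4 site, searched as TGACTC on both strands and given in capitals. The site was in 56.4% of the promoters of this list and 8.0% of all promoters.
LYS1: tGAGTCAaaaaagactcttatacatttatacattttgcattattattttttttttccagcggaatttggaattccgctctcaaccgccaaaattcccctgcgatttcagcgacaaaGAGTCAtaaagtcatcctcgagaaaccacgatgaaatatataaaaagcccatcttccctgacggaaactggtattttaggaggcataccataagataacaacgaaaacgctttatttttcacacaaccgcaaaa
Both matches are in the reverse orientation.

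Uptake and breakdown of amino acids gave mixed values. Among 20 permeases 6 were higher and 7 lower, and 10 were higher and 2 lower without TMM factors. DIP5, a permease for glutamate, aspartate and other amino acids, had 655, 687 and 673 CPM with CRCM and 155, 198 and 219 CPM with water (1.83 ± 0.31, adjusted p = 0.0010). GAP1, the general permease, fell to 26.8, 31.9 and 35.8 CPM in CRCM libraries, against 124, 149 and 442 CPM in water libraries (-2.65 ± 0.57, adjusted p = 0.0040). PUT4, the proline permease, was at 0.97 ± 0.29 (adjusted p = 0.019), a call lost without CRCM replicate 2 or 3 or water replicate 1 or 3 (0.86 to 0.96). Arginase, CAR1, had 32.7, 33.3 and 34.2 CPM with CRCM and 157, 183 and 179 CPM with water (-2.34 ± 0.09, adjusted p = 1.0e-06), and ornithine transaminase, CAR2, was at -1.16 ± 0.09 (adjusted p = 2.0e-05). Both degrade arginine. CAR1 differed with NRCM in the other direction, at 0.42 over water (adjusted p = 0.019).

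One-carbon metabolism, which draws on serine, held both called directions, and most of its genes were not called. Of 20 one-carbon and folate genes 7 were lower, 2 higher and 11 not called, with a median of -0.32. Without TMM factors 7 were higher and 5 lower, and the median was 0.09. ADE3, the trifunctional folate enzyme of the cytosol, had 229, 215 and 241 CPM with CRCM and 733, 633 and 781 CPM with water (-1.64 ± 0.10, adjusted p = 6.5e-06). SHM2, the cytosolic serine hydroxymethyltransferase, was at -1.29 ± 0.13 (adjusted p = 8.0e-05). MET6, methionine synthase, was at -1.60 ± 0.13 (adjusted p = 2.3e-05).

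Genes of de novo purine synthesis were mostly lower. Of 14, 11 were lower and 1 higher, with a median of -0.77, and 5 were lower and 2 higher without TMM factors. ADE17, of the last steps to IMP, had 56.4, 65.5 and 77.1 CPM with CRCM and 265, 326 and 331 CPM with water (-2.20 ± 0.25, adjusted p = 1.2e-04), and ADE2 was at -1.16 ± 0.10 (adjusted p = 2.5e-05). IMD4, IMP dehydrogenase, whose gene holds a small RNA gene in its span, was at -1.31 ± 0.32 (adjusted p = 0.0075). Of 12 genes of pyrimidine synthesis and uracil uptake, 5 were lower, 4 higher and 3 not called, with a median of -0.18, and without TMM factors 5 were higher and 3 lower. The lower members were URA1, URA2, URA4, URA5 and URA8, and the higher ones FUR4, FUR1, URK1 and URA6. URA1, dihydroorotate dehydrogenase, had 220, 149 and 136 CPM with CRCM and 532, 467 and 732 CPM with water (-1.78 ± 0.20, adjusted p = 1.4e-04), and URA2, of the first steps, was at -1.48 ± 0.14 (adjusted p = 3.9e-05). FUR4, the uracil permease, had 335, 312 and 301 CPM with CRCM and 94.6, 117 and 98.2 CPM with water (1.61 ± 0.37, adjusted p = 0.0056). FUR1, uracil phosphoribosyltransferase, was at 1.09 ± 0.14 (adjusted p = 2.8e-04). BY4741 lacks URA3 and so depends on uracil in the medium.

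All 7 genes of the ribonucleotide reductase list had negative values and 6 were lower, with a median of -0.96. The list holds more than the subunits of the enzyme, so its count is not one of subunits alone. RNR1, the large subunit, had 55.5, 28.4 and 23.8 CPM with CRCM and 98.6, 86.6 and 189 CPM with water (-1.78 ± 0.47, adjusted p = 0.010). RNR2, the small subunit, was tighter, with 136, 122 and 124 CPM in CRCM and 292, 269 and 341 CPM in water libraries (-1.23 ± 0.17, adjusted p = 4.0e-04). Among 18 vitamin genes, for thiamine and vitamin B6, 10 were lower and 2 higher. Without TMM factors 6 were lower and 4 higher, and the median was -0.02. THI4, of thiazole synthesis, was the most reduced of them, at -2.48 ± 0.25 (adjusted p = 6.8e-05). Among sirtuins, SIR2, the silencing deacetylase, had 17.5, 19.2 and 19.9 CPM with CRCM and 36.6, 38.1 and 35.2 CPM with water (-0.92 ± 0.09, adjusted p = 4.8e-05). HST1, its closest relative, moved oppositely, with 208, 210 and 201 CPM in CRCM and 94.4, 104 and 85.3 CPM in water libraries (1.12 ± 0.10, adjusted p = 4.4e-05).

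Lipid and cell wall genes were mainly lower. Of 27 ergosterol genes 19 were lower and 2 higher, with a median of -0.47. Without TMM factors 10 were lower and 7 higher, and the median was -0.06. ERG25, C-4 methyl sterol oxidase, had 102, 83.6 and 81.3 CPM with CRCM and 601, 530 and 516 CPM with water (-2.62 ± 0.36, adjusted p = 3.5e-04). ERG5 and ERG3, late desaturases, were at -2.26 ± 0.27 (adjusted p = 1.7e-04) and -1.98 ± 0.25 (adjusted p = 2.4e-04), and ERG11, the azole target, at -0.97 ± 0.15 (adjusted p = 7.0e-04). ERG25, ERG5, ERG3 and ERG11 use oxygen and iron. OLE1, the fatty acid desaturase, which also carries iron, had 2019, 1851 and 1788 CPM in CRCM and 5222, 5216 and 3631 CPM in water libraries (-1.30 ± 0.16, adjusted p = 2.1e-04). FAS1, a fatty acid synthase subunit, was at -1.85 ± 0.16 (adjusted p = 2.4e-05) and OPI3, of phosphatidylcholine synthesis, at -1.26 ± 0.12 (adjusted p = 5.6e-05). INO1, inositol phosphate synthase, overlapped between groups, at -0.31 ± 0.13 (adjusted p = 0.067), and was called lower with DESeq2 on recovered reads, in a fit of only the 6 libraries, and without CRCM or NRCM replicate 1 (-0.27 to -0.43).

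Of 35 cell wall mannoproteins and glucanases 21 were lower and 1 higher, with a median of -0.87. TIP1 had 149, 117 and 122 CPM with CRCM and 2431, 1821 and 3103 CPM with water. HSP150, a secreted wall protein, fell by 2.30 ± 0.22 (adjusted p = 5.0e-05) and PST1, of the wall stress response, by 1.82 ± 0.15 (adjusted p = 2.3e-05). CWP1 was the member that rose, with 120, 109 and 113 CPM in CRCM and 57.2, 67.1 and 57.6 CPM in water libraries (0.90 ± 0.16, adjusted p = 0.0011).

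Genes near chromosome ends were lower in CRCM cultures. Of 104 genes tested within 10 kb of an end, 3 were higher and 76 (73.1%) lower, with a median of -0.56. From 10 to 30 kb, 40 of 263 were higher and 109 (41.4%) lower, and over 100 kb from an end 1299 of 4454 were higher and 994 (22.3%) lower. NRCM gave a median of -0.09 over water within 10 kb. The COS family, membrane proteins that promote sorting of cargo to the vacuole, is among these genes, and 11 of its 12 members were lower (median -1.12). COS8 had 34.4, 36.2 and 38.2 CPM with CRCM and 102, 92.5 and 97.5 CPM with water (-1.40 ± 0.11, adjusted p = 1.4e-05), and COS1 was at -1.21 ± 0.08 (adjusted p = 7.2e-06). COS9 had -0.28 ± 0.12 and was not called (adjusted p = 0.074), but was called lower with DESeq2 on recovered reads, in a fit of only the 6 libraries and without NRCM replicate 1 (-0.24 to -0.32). The family's sequences are near-identical, as are many at chromosome ends, so reads may be shared between members.

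**Figure D3:**
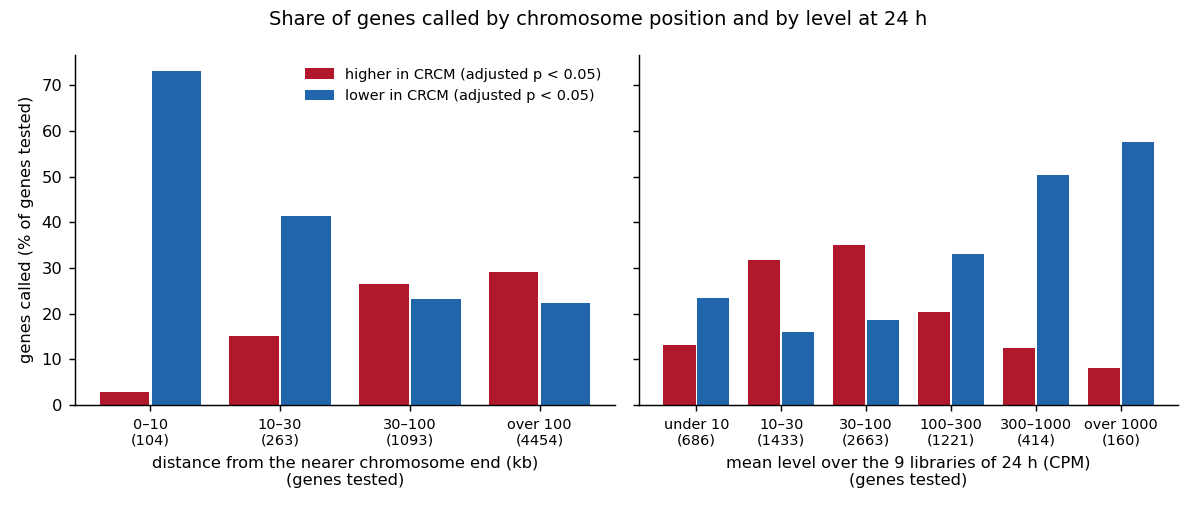
Share of genes tested that were called higher (red) or lower (blue) in CRCM at 24 h, by distance from the nearer chromosome end in kb (left) and by mean level in CPM (right), with the number of genes tested in parentheses. Within 10 kb of an end 73.1% were lower and 2.88% higher, and over 1000 CPM 57.5% were lower and 8.13% higher.

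**Figure D4:**
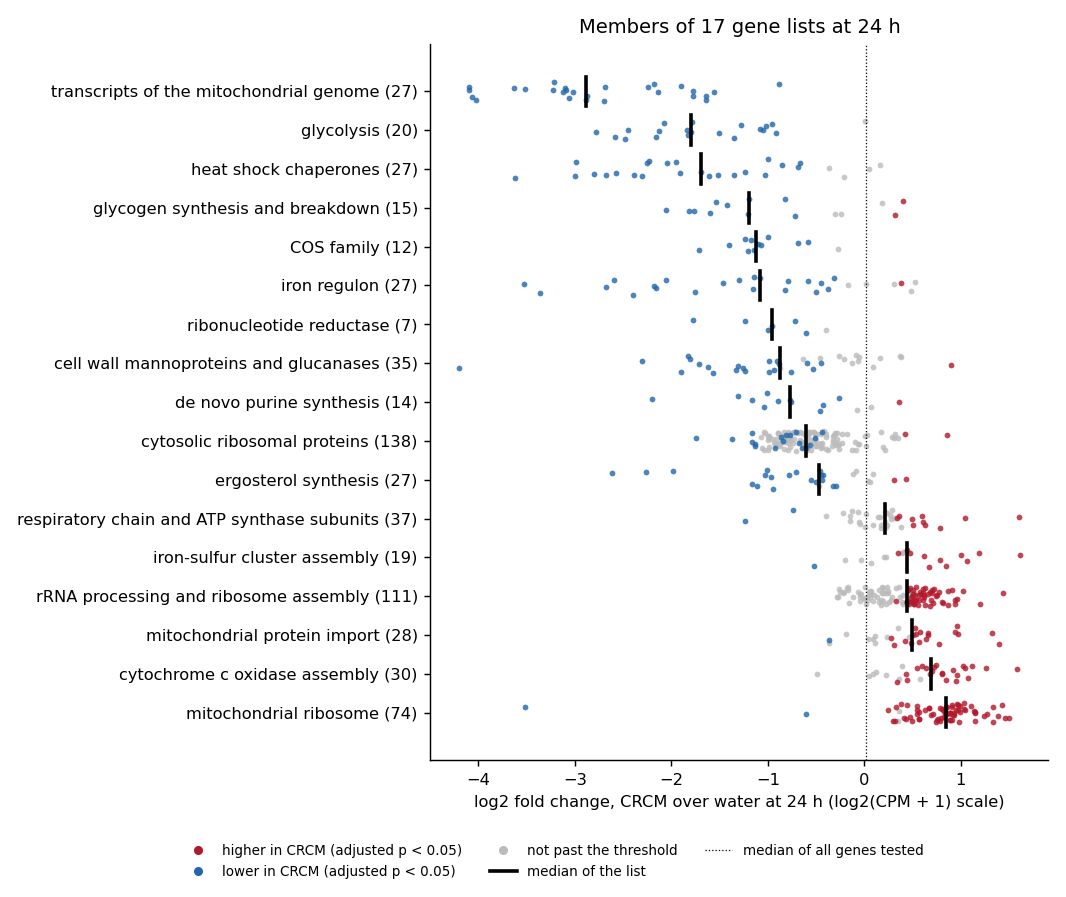
Log2 fold change, CRCM over water at 24 h, of every tested member of 17 gene lists, one point a gene, with the number of members in parentheses and the list median as a black line. Glycolysis (median -1.79) and the chaperones (median -1.69) lie left of the dotted median of all genes, and the mitochondrial ribosome (median 0.85) lies right of it; the point at -3.52 in that row is VAR1.

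NRCM changed fewer genes. Against water at 24 h it gave 455 higher and 418 lower genes, or 13.3% of those tested, and CRCM against NRCM gave 1473 higher and 1301 lower (42.2%). These comparisons share libraries with CRCM against water, so their values stand only side by side. Glycolysis had a median of -1.79 for CRCM over water, -0.32 for NRCM over water and -1.33 for CRCM over NRCM. The mitochondrial ribosome had 0.85, 0.20 and 0.60. CHA1 was intermediate with NRCM, at 25.9, 40.9 and 40.5 CPM, and higher than with water at 1.96 ± 0.16 (adjusted p = 4.9e-04). NRCM replicate 1 stood apart from the other NRCM libraries, with a glycolysis sum of 87822 CPM against 52313 and 59412 CPM. NRCM libraries enter the main comparison mainly through the shared spread: leaving out that replicate gave 2389 higher and 1869 lower genes for CRCM against water, with 99.8% of the original calls kept.

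At other times of the culture the CRCM effect was different. In log phase CRCM gave 0 higher genes and 1 lower gene, and its effect differed between 24 h and log phase for 25.2% of genes by the interaction test. At 96 h, in a fit of all 27 libraries, 1191 were higher and 1109 lower (34.5% of 6658 genes tested). The 24 h and 96 h contrasts share no library. Of the 1790 genes higher at 24 h, 472 were also called higher and 98 called lower at 96 h, and of the 1594 lower at 24 h, 510 were called lower and 203 higher. Across 6577 genes Pearson's r of the log2 fold changes was 0.38, a description across genes that share libraries and depth. Glycolysis had a median of 0.07 at 96 h, and 16 of its 20 members differed between times in the interaction test (29.9% of all genes did). For PGK1 the CRCM effect was lower at 24 h than at 96 h by 3.23 (adjusted p = 1.6e-06). Chaperones had a median of -0.38 and the mitochondrial ribosome -0.04 at 96 h. The COS family had -1.13 there, and 1 of 12 members passed the interaction test.

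**Figure D5:**
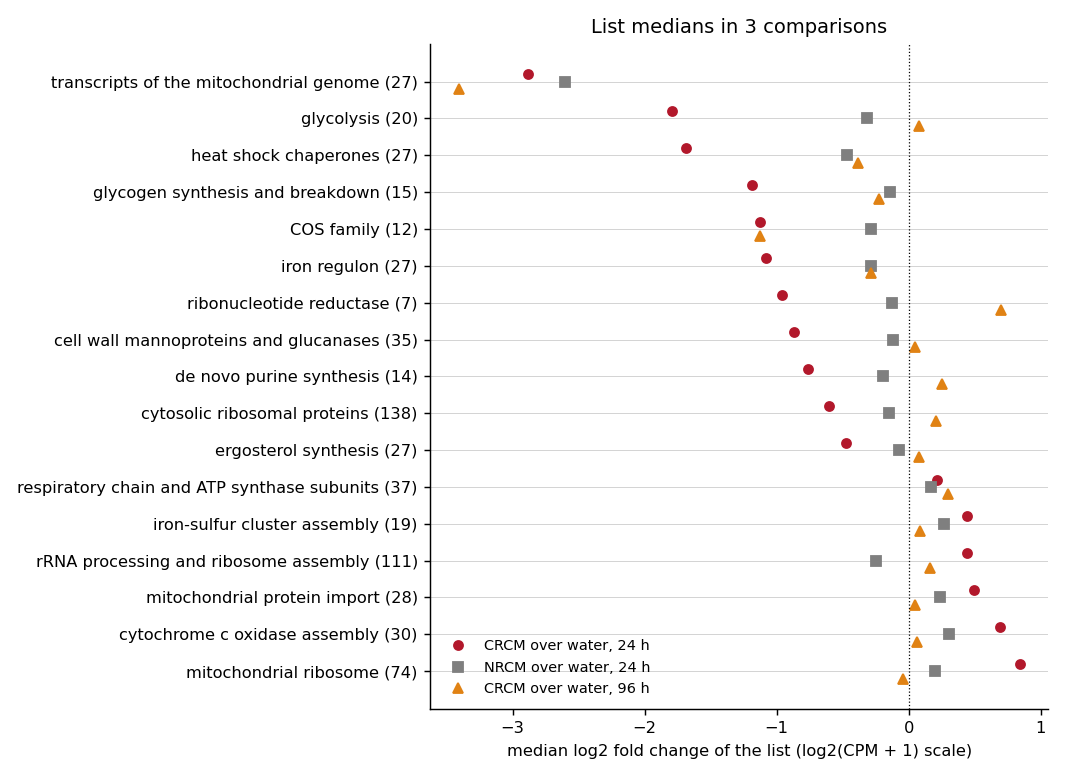
Median log2 fold change of 17 gene lists for CRCM over water at 24 h, NRCM over water at 24 h and CRCM over water at 96 h, with the number of genes in parentheses. The COS family had -1.12, -0.29 and -1.13, and the mitochondrial ribosome 0.85, 0.20 and -0.04.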

How the data were processed

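RNA was measured by RNA-seq of poly(A)-selected libraries. The authors aligned reads with bowtie2 (defaults, sacCer3) and compared groups with DESeq2. Bedtools and edgeR also appear in the submitters' processing notes, and no version is stated. How reads were counted per gene, and on which strand, is not given in the sources used here. The paper and the labels differ on whether the kit was directional, so reads of overlapping and antisense genes may be mixed. The values deposited by the authors are a signal: reads per gene divided by the library total, so each of the 27 columns sums to 1 over 6692 genes. Every column was used. For each library the read total under which its shares become whole numbers was recovered, and 100% of the testable values (38.8% of all values) were whole within 0.1 read. Totals ran from 7396427 to 114316138 with a median of 12375094.

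Shares were multiplied to CPM and scaled with TMM factors from edgeR 4.0.16. A gene was tested if 3 or more of the 9 libraries of 24 h had 1 CPM or more of it (115 genes were not tested) on log2(CPM + 1) with limma 3.58.1 in R 4.3.3, with a trend in the variance. The 9 libraries shared 1 estimate of the spread, p values were adjusted by Benjamini-Hochberg over all genes tested, and 0.05 was the threshold. The change of the CRCM effect between times was tested as an interaction over 27 libraries. On the recovered reads edgeR's quasi-likelihood test called 1791 genes higher and 1639 lower, and DESeq2 1.42.0 called 1760 and 1755. The script was tested on simulated data. No pair of CRCM or water libraries was alike enough to be a copy (lowest chi-square per degree of freedom 5.82).

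The members and the 58 gene lists were chosen with earlier results of these data known, and lists are described by counts and medians without a set test. Genes were named by rule: the 10 largest changes and the 5 smallest adjusted p values in each direction among non-overlapping genes of at least 10 CPM, up to 4 called members and the first 4 members of each list, CHA1 and the deleted genes. TDH1, ALD6, PFK26, GPP1, HSP42, FIT2, SIT1, FIT1, AFT2, MRS3, MRP8, HAP3, HAP5, HAP2, COX1, OLI1, RPS27A, LYS4, CPA1 and COS9 were named after their values were seen. So were some pyrimidine genes, since every called member of that list is named. Sequences and coordinates are from the R64 RefSeq assembly, which is sacCer3, and 6008 of 6692 row names matched it. Alternatives were the scaling, the pseudocount, the filter, the test, the libraries in the fit, the replicate block and leaving out each library.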

Additional observations from a re-analysis of the deposited data

Results flagged for a closer look

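The CRCM effect was tested between times. It was higher at 24 h than at 96 h for 959 genes and lower for 1034, and higher at 24 h than in log phase for 848 genes and lower for 829, at an adjusted p under 0.05 of the limma interaction over 27 libraries.

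For 7 named genes the effect passed at both times in opposite directions, and the difference, 24 h minus 96 h on the log2 scale, passed as well. PHO84, the high-affinity phosphate transporter, was lower at 24 h (-1.94) and higher at 96 h (2.72), a difference of -4.65. PDC1, pyruvate decarboxylase, had a difference of -3.64 and CDC19, pyruvate kinase, one of -2.75. RNR2, of ribonucleotide reductase, had a difference of -2.68, with 1.47 at 96 h. In lipid synthesis, OLE1 had a difference of -2.21 and OPI3 one of -2.01. MRPS8, of the mitochondrial ribosome, went the other way, with a difference of 1.95 and a 96 h value of -0.47.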

How the results depend on the processing

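Scaling was the choice that moved the counts. With no TMM factors the counts were 3777 higher and 656 lower, 2439 and 442 of them by at least 1.5-fold, and 85.2% of calls were higher against 52.9% with TMM. The interaction counts were then 3300 and 401 for 24 h against 96 h, and 3150 and 367 for 24 h against log phase. Of the original calls 72.3% were kept, 329 genes changed sign, and the log2 fold changes of TOM40 and GCN4 turned to 0.055 and 0.058. With DESeq2 size factors the counts were 1719 higher and 1657 lower. Fitting only the 6 libraries gave 2119 and 1929, and fitting all 27 gave 1574 and 1418. The pseudocounts, the filters and both count tests kept 94.8 to 99.8% of calls. Leaving out 1 library gave 1442 to 2389 higher and 1279 to 1869 lower genes, the most without NRCM replicate 1, and 80.2 to 86.2% of calls were kept without a CRCM or water library.

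With a replicate block the counts were 1801 higher and 1691 lower, and 96.8% of calls were kept; cytosolic ribosomal protein genes called lower then numbered 94, against 18. The numbers do not settle whether same-numbered libraries were paired. Same-numbered CRCM and water libraries correlated at 0.34, 0.14 and -0.21 in their deviations from the group means. The 2 libraries numbered 1 correlated best with each other, but not every library correlated best with its own number. Replicate 1 also had the largest cytosolic ribosomal protein sum in each group of 24 h: 18573 CPM with CRCM, 27086 CPM with NRCM and 21337 CPM with water. The smallest library limits genes under 10 CPM, of which 13.1% were called higher and 23.5% lower.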

Other observations

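The a-specific genes, those that a MATa cell needs to mate, were lower in CRCM cultures at 24 h for 5 of 6 members, with a median of -0.86, and had a median of 0.85 at 96 h. Of 12 zinc-responsive genes 7 were lower with CRCM (median -0.55) and 11 were lower with NRCM (median -0.75) against water. Without TMM factors 4 were lower and 3 higher with CRCM, and the median was -0.13. Of 8 vacuolar proteases and inhibitors 7 were lower with CRCM, with a median of -0.71. Of 20 cyclins and other cell cycle genes 3 were higher, 0 lower and 17 not called, so the share called higher was under the 27.2% of all genes tested. Of the 20, 13 had negative values, and the median of -0.22 became 0.19 without TMM factors. Of 33 proteasome genes 9 were lower and 3 higher, with a median of -0.15 that became 0.27 without TMM factors. The 27.3% called lower was near the 24.2% of all genes tested.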
